A study of Arabidopsis thaliana with 12 samples.

Results

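Described here are 4 genes of amino acid synthesis in the plastid: DHAD (AT3G23940), KARI (AT3G58610), HISN4 (AT4G26900, AT-HF in the reference gene table) and ASL (AT5G10920). They were chosen by name, as array features that the platform's gene table pairs with exactly 1 gene. Each had 1 such feature, so the 4 genes are 4 of 692 features with 1 gene and of 3439 features on the array. Transcript levels were measured in total RNA of wild-type Arabidopsis thaliana, ecotype C24. In 6 samples the plants had grown under light specific for photosystem II and had been treated with DCMU (PSII light with DCMU), and in the other 6 samples under light specific for photosystem I without DCMU (PSI light). DCMU is an inhibitor of photosynthetic electron transport that acts at photosystem II. Light and inhibitor changed together, so what each did cannot be told apart, and the labels name no plant age, tissue or duration.

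Plants make the branched-chain amino acids valine, leucine and isoleucine, as well as histidine and arginine, largely in the plastid, with enzymes encoded in the nucleus. KARI, ketol-acid reductoisomerase, reduces and rearranges acetohydroxy acids with NADPH. DHAD, dihydroxy-acid dehydratase, is an iron-sulfur enzyme that takes the product of KARI and removes water from it, a step shared by valine, leucine and isoleucine. HISN4 is the imidazole glycerol-phosphate synthase of the histidine pathway, which closes the imidazole ring with nitrogen from glutamine. ASL, argininosuccinate lyase, performs the last step of arginine synthesis and releases arginine and fumarate.

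The deposited value is an intensity on a linear scale of unknown unit, and the levels of different features are not compared. Samples numbered 1 and 2, 3 and 4, and 5 and 6 of a group behaved as technical pairs, so each pair was averaged to replicate 1, 2 or 3 and n = 3 per group, except in 2 alternative fits and in the likeness of profiles, which used the 12 samples. No label states that samples were separate plants, so p-values rest on a spread among samples that may be technical. Precision is limited by how few arrays there are. The median intensity of a sample was 0.632 to 0.687 under PSII light with DCMU and 0.542 to 0.584 under PSI light. The mean intensity was not higher in the same way, at 1.085 to 1.096 under PSII light with DCMU and 1.092 to 1.135 under PSI light. All intensities of the 4 genes lay well over the floor of 0.0431 under which values were set equal, the lowest of them 6.29 times that floor. In RNA from bulk samples, fewer cells of a type and less RNA per cell cannot be told apart. Of 23 marker genes for root, flower and seed, leaf mesophyll and guard cells, 0 had a feature of their own, so the tissue was not checked.

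The test did not come out alike for all 4 genes. That alone does not show that their changes differ from each other, which was tested for each pair further on. DHAD was higher under PSII light with DCMU, HISN4 was lower, and KARI and ASL did not pass the test. A feature counted as changed at an adjusted p under 0.05 in limma's moderated test with Benjamini-Hochberg adjustment over all 3439 features. By this rule 1 gene rose and 1 fell among the 4, while 48.5% of all features were called, with 26.4% higher and 22.0% lower. A count of 2 among 4 is therefore close to the background of the array. The median log2 change of the 4 genes was -0.08, beside 0.04 over all features.

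DHAD had the largest change of the 4. Its replicates read 1.38, 1.34 and 1.47 under PSII light with DCMU, against 0.279, 0.452 and 0.419 under PSI light. The lowest single sample under PSII light with DCMU, at 1.296, stood above the highest under PSI light, at 0.493, so the groups did not overlap. The replicates of the groups, a looser measure than single samples, were apart in 60.7% of all features. In 33.8% the higher values lay under PSII light with DCMU. DHAD averaged 1.39 ± 0.0653 under PSII light with DCMU and 0.383 ± 0.0918 under PSI light (SD, n = 3), a ratio of 3.64. The log2 change was 1.90 ± 0.199 (SE, limma, adjusted p = 0.00225), with a 95% interval of 1.38 to 2.41. Of all features, 4.65% had a larger change in either direction. The spread lay mainly in the PSI light group, where replicate 1 was lower than the other two, and the 3 replicates under PSII light with DCMU lay within 0.13 of each other on the log2 scale. Compared within each replicate number, the log2 change was 2.31, 1.57 and 1.81 for numbers 1, 2 and 3. With the feature's place in the array's numbering taken out, by a correction described further on that has a fault of its own, the log2 change was 0.99.

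**Figure D1:**
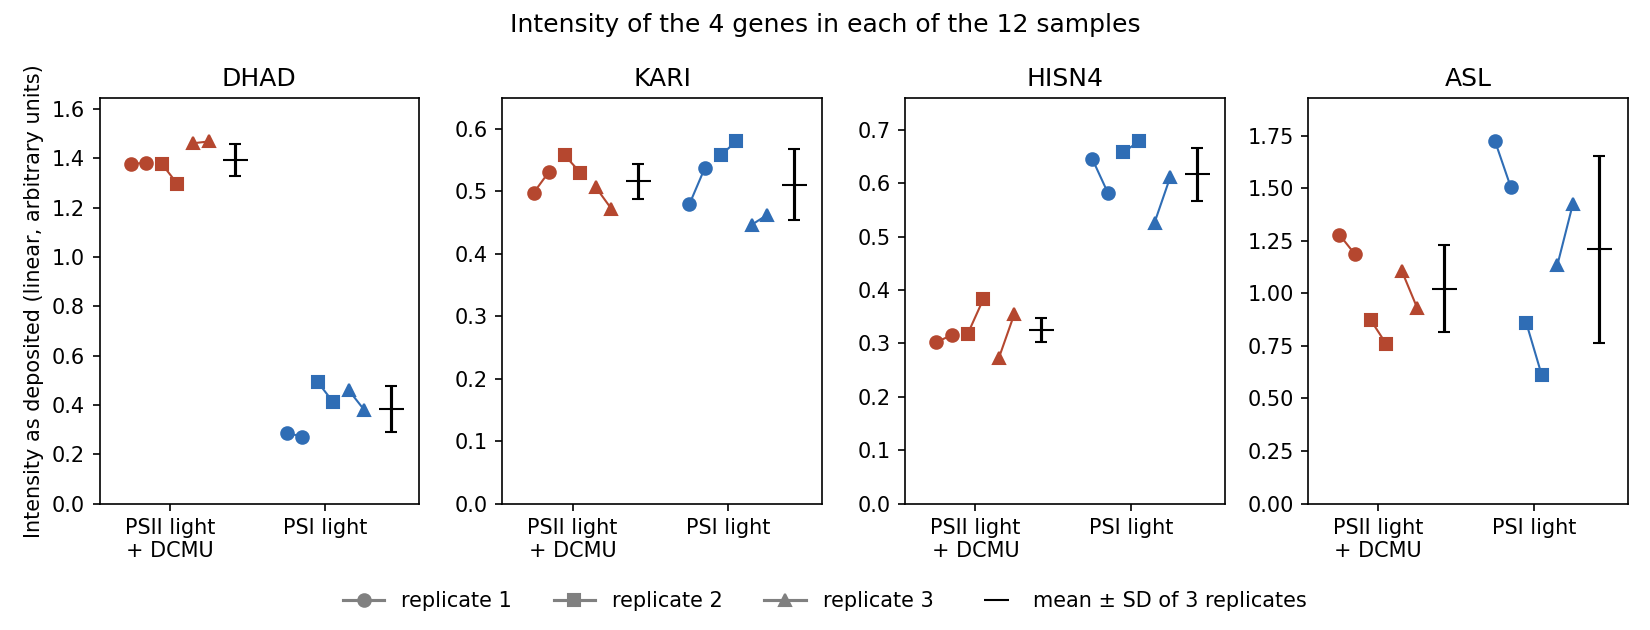
Intensity as deposited (linear scale from 0, a separate axis for each gene) in each of the 12 samples, with PSII light with DCMU at the left of each panel. Lines join the samples of a technical pair, and bars give the mean ± SD of 3 replicates. DHAD lay between 1.296 and 1.47 under PSII light with DCMU and between 0.271 and 0.493 under PSI light, each sample of HISN4 under PSII light with DCMU lay under all its samples under PSI light, and the groups of KARI and ASL overlapped.

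KARI, which makes the substrate of DHAD, gave nearly the same readings in both groups. Its replicates read 0.514, 0.543 and 0.489 under PSII light with DCMU, against 0.508, 0.568 and 0.454 under PSI light. The means were 0.515 ± 0.0274 under PSII light with DCMU and 0.51 ± 0.0571 under PSI light (SD, n = 3), and the groups overlapped. The log2 change was 0.02 ± 0.0987 (SE, limma, adjusted p = 0.915). Its 95% interval, -0.24 to 0.27, leaves room for a change of either sign within those bounds. In both groups replicate 2 was the highest and replicate 3 the lowest, and the change within each number was 0.02, -0.07 and 0.11. A change of scaling altered the call: after quantile normalization KARI stood at -0.31 ± 0.0939 and passed (adjusted p = 0.0429), within a range of 0.0429 to 0.949 over 17 alternatives.

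The changes of these consecutive enzymes were also compared with each other. The log2 change of DHAD exceeded that of KARI by 1.88, and by 2.29, 1.63 and 1.71 within numbers 1, 2 and 3. The difference between their log2 values did not overlap between the groups. An exact two-sided permutation test of 3 against 3 replicates gave p = 0.1, the smallest it can give, and 0.15 after adjustment over the 6 pairs of genes compared. With place taken out the excess was 0.71.

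HISN4 fell. Its replicates read 0.309, 0.35 and 0.314 under PSII light with DCMU, against 0.614, 0.669 and 0.569 under PSI light. The highest single sample under PSII light with DCMU, at 0.383, was under the lowest under PSI light, at 0.527. HISN4 averaged 0.324 ± 0.0224 under PSII light with DCMU and 0.617 ± 0.0499 under PSI light (SD, n = 3), so its mean was 52.6% of that under PSI light. The log2 change was -0.93 ± 0.0862 (SE, limma, adjusted p = 0.00163), and its 95% interval was -1.15 to -0.71. A larger change in either direction was found in 23.2% of all features. The change within numbers 1, 2 and 3 was -0.99, -0.94 and -0.87, with the same sign and nearly the same size in all 3. Replicates, a looser measure than single samples, lay apart in this direction in 27.0% of all features. The samples of a technical pair differed by up to 0.38 on the log2 scale. With the 12 samples fitted with the technical pair as a random block, the SE was larger, at 0.164.

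ASL varied most between replicates. Its replicates read 1.23, 0.818 and 1.02 under PSII light with DCMU, against 1.62, 0.735 and 1.28 under PSI light. Replicate 1 was the highest and replicate 2 the lowest in both groups, and the groups overlapped. The means were 1.02 ± 0.208 under PSII light with DCMU and 1.21 ± 0.445 under PSI light (SD, n = 3). The log2 change was -0.18 ± 0.348 (SE, limma, adjusted p = 0.716), and its 95% interval ran from -1.08 to 0.72. Within numbers 1, 2 and 3 the change was -0.39, 0.17 and -0.33, so its sign was not the same in all 3. The PSI light group alone spanned 1.15 on the log2 scale, against 0.60 under PSII light with DCMU.

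**Figure D2:**
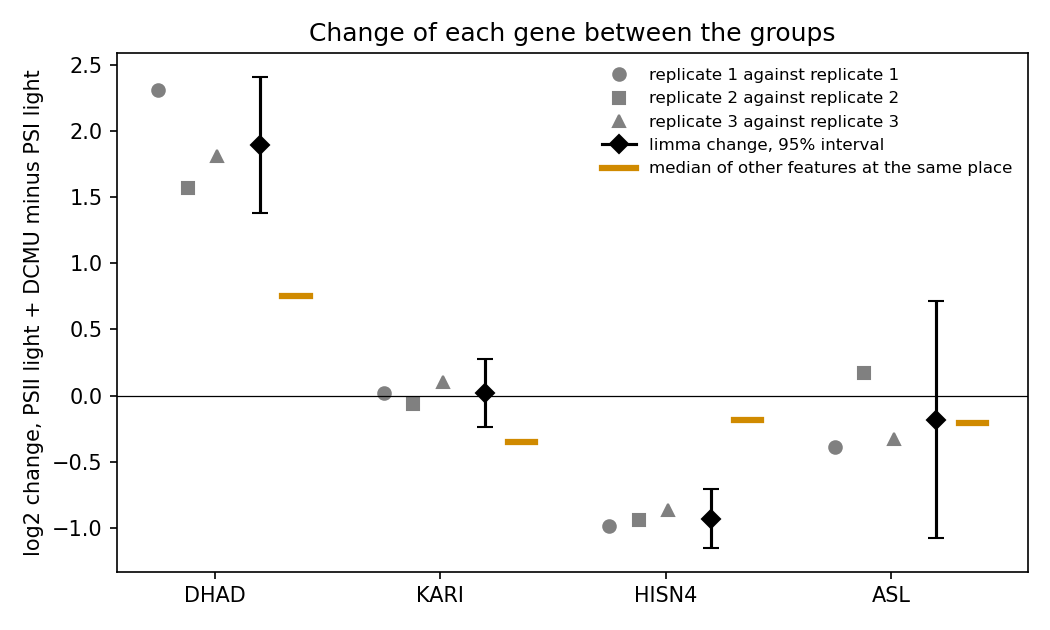
Log2 change of each gene, PSII light with DCMU minus PSI light. Grey symbols compare replicates of the same number, black diamonds give limma's change with its 95% interval, and orange bars give the median change of the other features at the same place of the array's numbering. The intervals of DHAD (1.38 to 2.41) and HISN4 (-1.15 to -0.71) lay away from 0, and those of KARI and ASL held 0.

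Among the other pairs of genes, the change of DHAD exceeded that of HISN4 by 2.83 and that of ASL by 2.08, and the change of KARI exceeded that of HISN4 by 0.95. With place taken out these differences were 1.64, 0.92 and 0.94. In these 3 pairs the groups did not overlap (exact permutation p = 0.1, adjusted p = 0.15 each). HISN4 against ASL differed by -0.75 (exact permutation p = 0.2, adjusted p = 0.24), and by -0.60, -1.11 and -0.54 within numbers 1, 2 and 3, which share 1 sign although the groups overlapped. KARI against ASL differed by 0.20 (exact permutation p = 0.7, adjusted p = 0.7), and by 0.41, -0.24 and 0.43 within the numbers. Within numbers 1, 2 and 3 the change of DHAD exceeded that of HISN4 by 3.29, 2.51 and 2.68 and that of ASL by 2.69, 1.40 and 2.14, and that of KARI exceeded that of HISN4 by 1.01, 0.87 and 0.97. The permutation test did not use the numbers. The design cannot reach 0.05 in this test.

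The place of a feature in the array's numbering moved with these results. When the feature numbers were divided into repeating runs of 3 stretches of 96 numbers each, the log2 change had a median of -0.31 over the first stretch (places 1 to 96), of 0.42 over the second (from place 97) and of 0.16 over the third (from place 193). DHAD lay at place 120, in the stretch where 39.6% of features were called higher and 8.73% lower. KARI at place 14, HISN4 at place 62 and ASL at place 67 lay in the stretch where 8.03% were called higher and 40.5% lower. HISN4 and ASL were close neighbours, with feature numbers 638 and 643. The 10 other features at the place of DHAD had a median change of 0.75 and ran from 0 to 2.06, so the change of DHAD lay within their range. The other features at the places of KARI, HISN4 and ASL had medians of -0.35, -0.18 and -0.21, and the change of HISN4 lay under the lowest of its 12, at -0.81. By brightness, in 10 classes of features, the median log2 change was -0.10 in the class of DHAD, 0.33 in that of KARI and HISN4 and -0.24 in that of ASL.

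**Figure D3:**
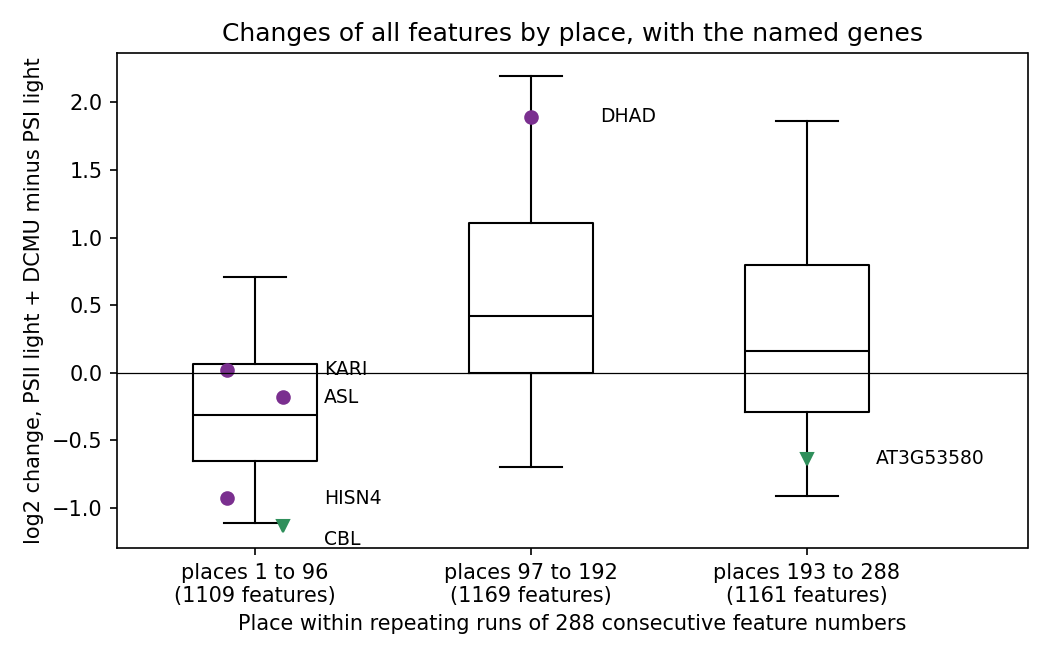
Log2 changes of all 3439 features, PSII light with DCMU minus PSI light, by stretch of 96 places within repeating runs of feature numbers. Boxes show the quartiles and whiskers the 5th and 95th percentiles; circles mark the 4 genes and triangles CBL and AT3G53580. The median was -0.31, 0.42 and 0.16 from left to right, and DHAD (1.90) stood in the stretch with the highest median.

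The median deviation at each place was then taken out of every replicate. This brought the log2 change of DHAD from 1.90 to 0.99 ± 0.123 (SE, limma, adjusted p = 0.00147), still past the threshold. HISN4 then stood at -0.65 ± 0.0988 (adjusted p = 0.00309) and KARI at 0.29 ± 0.124 (adjusted p = 0.102). The sign of ASL turned, with 0.076 ± 0.14 (adjusted p = 0.684). This correction has a fault, since 141 features never rose above the floor, so that they hold no measurement, and 83 of these were called with it, against 0 without it. The part that place plays in these results was not tested beyond these values.

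DHAD and HISN4 passed the test in opposite directions under each of the 17 alternatives. The alternatives reuse the same samples, so they are not independent of each other. They include the place correction, with the fault given above, and a fit that counts technical partners as replicates. A pass in those fits carries less weight. The log2 change of DHAD ran from 0.98, with place and brightness taken out, to 2.03, without PSI light replicate 2, and its adjusted p (limma) reached 0.014 at most. That of HISN4 ran from -1.34 after quantile normalization to -0.65 with place taken out, with an adjusted p of at most 0.0113. Without PSI light replicate 2 the change of ASL was -0.51 ± 0.227 (SE, limma, adjusted p = 0.138), and without PSI light replicate 1 it was 0.068 ± 0.332 (adjusted p = 0.917). Centring each array on its median moved the median change of all features from 0.04 to -0.18. Relative to that median the changes of DHAD, KARI, HISN4 and ASL were 1.86, -0.02, -0.97 and -0.22 with the intensities as deposited. Centring moves the change of every feature by the same amount, so it could not alter these values. After quantile normalization they were 1.84, -0.26, -1.29 and -0.06. The share of higher calls among all calls was 54.5% as deposited, 41.5% after quantile normalization and 40.9% with the centring.

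**Figure D4:**
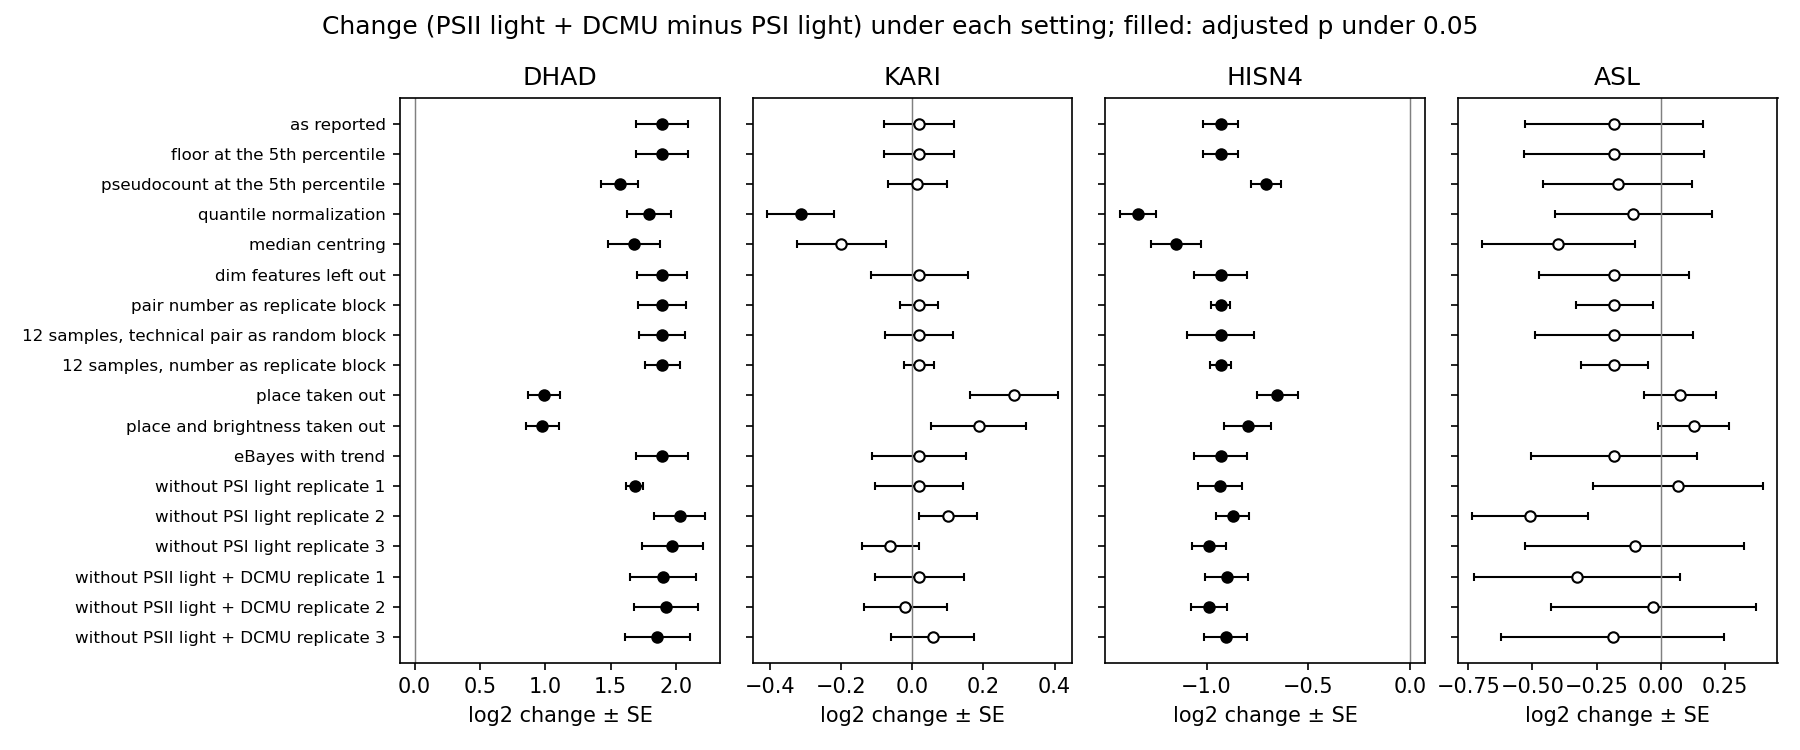
Log2 change with its SE for each gene, PSII light with DCMU minus PSI light, under the setting as reported and 17 alternatives, on a separate axis for each gene. Filled circles have an adjusted p under 0.05 (limma, Benjamini-Hochberg over all features in the fit). The circles of DHAD and HISN4 are filled throughout, KARI has 1 filled circle, after quantile normalization, and ASL none.

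Few neighbours of the 4 genes in metabolism could be read. Lists of branched-chain amino acid synthesis (21 genes), histidine synthesis (11), arginine synthesis (13), other plastid amino acid synthesis (49), nitrogen assimilation (13) and branched-chain amino acid breakdown (9) held 116 genes. Of these, 6 had a feature paired with them alone, the 4 genes above and 2 others, both in the list of other plastid amino acid synthesis. These 2 fell and 0 rose, beside 22.0% of all features that were called lower. CBL, at place 5, lay in the stretch where 40.5% were called lower. AT3G53580, at place 256, lay in the stretch where 17.8% were. The call of AT3G53580 ended with the 12 samples fitted with the technical pair as a random block (limma, adjusted p = 0.0572), and both calls ended without certain replicates, as given with their values. The lists of nitrogen assimilation and branched-chain breakdown had 0 such features. Another 10 features of the synthesis lists were paired with several genes and are not named.

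CBL (AT3G57050), the cystathionine beta-lyase of methionine synthesis, averaged 0.381 ± 0.0819 under PSII light with DCMU and 0.855 ± 0.265 under PSI light (SD, n = 3). Its log2 change was -1.13 ± 0.309 (SE, limma, adjusted p = 0.0343), and the highest replicate under PSII light with DCMU, at 0.472, was below the lowest under PSI light, at 0.55. AT3G53580, which was listed for lysine synthesis, averaged 0.165 ± 0.0207 under PSII light with DCMU and 0.255 ± 0.0395 under PSI light (SD, n = 3), a log2 change of -0.64 ± 0.166 (adjusted p = 0.0305). It was a dim feature, with its lowest replicate at 0.142, beside 0.139 at the 5th percentile of positive intensities. Its replicates did not overlap either, with 0.181 at most under PSII light with DCMU and 0.215 at least under PSI light. Replicates lay apart in this direction in 27.0% of all features, and in either direction in 60.7%. Both calls ended without any 1 of the same 5 replicates, all but PSI light replicate 3, with adjusted p (limma) of 0.0552 to 0.102 for CBL and 0.0567 to 0.0801 for AT3G53580. With place taken out the changes were -0.85 ± 0.258 for CBL and -1.13 ± 0.217 for AT3G53580. Over the alternatives that gave a value, the change of AT3G53580 ran from -1.27 to -0.37 and that of CBL from -1.46 to -0.85.

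Likeness of pattern was measured over the 12 samples as the root-mean-square difference between log2 profiles, each centred on its own mean, against the 691 other features with 1 gene. The 12 samples span both groups, so features chosen as near have a like change by that choice, and their changes are no separate result. The features nearest to DHAD were AT1G51550 at 0.0945, AT1G18060 at 0.129 and AT1G72020 at 0.218 (log2), where the median feature stood at 0.956. These 3 rose by 1.89, 1.95 and 2.21, and lay at places 118, 143 and 151, in the same stretch as DHAD. Nearest to HISN4 were AT2G33180 at 0.11, AT1G15140 at 0.124 and AT4G00870 at 0.152, where the median was 0.584. Their log2 changes were -0.93, -0.99 and -0.90, and they lay at places 187, 95 and 7. Nearest to KARI were AT3G52070 at 0.0851, AT2G46850 at 0.109 and AT3G07790 at 0.11, where the median was 0.358, and none of these 3 passed the test. ASL had no neighbour closer than 0.22, which AT4G31210 and AT4G33500 reached, followed by AT4G21770 at 0.225, where the median was 0.556. These 3 lay at places 272, 268 and 262, away from the stretch of ASL.

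None of the 4 genes was among the 3 nearest of another. KARI and ASL stood 0.495 apart on the same measure, KARI and HISN4 0.498, HISN4 and ASL 0.622, DHAD and KARI 0.974, DHAD and ASL 1.19, and DHAD and HISN4 1.44. From DHAD, 653 of the 691 features were as near as HISN4 or nearer, HISN4 included.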

How the data were processed

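Total RNA of 12 samples was measured on an expression array. The authors deposited intensity values from 0 to 100 on a linear scale; the array type, background correction and scaling are not given in the sources used here. They were kept as deposited. Values under the 1st percentile of positive intensities (0.0431; 4.74% of values) were set to it before log2 was taken. Names came from GEO's annotation of the platform, which may be outdated: 692 had 1 gene, 870 several and 1877 none, and 690 of the 692 matched the reference gene table of assembly TAIR10.1. Short names of DHAD, KARI and ASL follow common use. Cross-hybridisation with related genes was not assessed, and no coordinates or sequences are given.

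Within a group, deviations from the group mean correlated at 0.38 to 0.66 between samples 1 and 2, 3 and 4, and 5 and 6, and at -0.51 to -0.18 otherwise, and all 12 samples were closest to their partner. Pairs were averaged on the log2 scale for the fit, and on the linear scale without the floor for printed intensities. Same-numbered replicates of the 2 groups correlated at 0.29 to 0.36, so the numbers pair the groups, as seen in the data and not from a label.

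The change is PSII light with DCMU minus PSI light, fitted in R 4.3.3 with limma 3.58.1 (lmFit, then eBayes), without a block, two-sided, with Benjamini-Hochberg adjustment over 3439 features at 0.05; it was tested on simulated data. Figures used Python 3.11.15 and matplotlib 3.10.9. Alternatives concerned the floor, pseudocount, scaling, dim features, replicate unit, block, place, brightness, a variance trend and each replicate left out. Named were the 4 genes, every measured gene of 6 pathway lists, and for each gene the 3 features with the nearest profile. The genes, lists and alternatives were chosen with earlier results of these data known.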

Additional observations from a re-analysis of the deposited data

How the results depend on the processing

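The calls of DHAD and HISN4 kept their direction and their side of the threshold under all 17 alternatives, and the count of all called features ran from 1138 to 2411, beside 1667, the highest with all 12 samples as separate replicates and their number as a replicate block, a fit that counts technical partners as replicates. With the pair number as a replicate block, DHAD (1.90 ± 0.183, adjusted p = 0.014) and HISN4 (-0.93 ± 0.0464, adjusted p = 0.00934) passed, KARI (0.02, adjusted p = 0.805) and ASL (-0.18, adjusted p = 0.393) did not, and 1656 features were called, so the block changed no call of the 4 genes, nor of CBL and AT3G53580. The sign of KARI turned under quantile normalization (-0.31) and median centring of each array (-0.20), and without 1 replicate its change ran from -0.061 to 0.10. That of ASL turned with place taken out (0.076) and with place and brightness taken out (0.13), and without 1 replicate it ran from -0.51 to 0.068. Without 1 replicate, DHAD ran from 1.68 to 2.03, HISN4 from -0.99 to -0.87, and the called features from 1138 to 1685. Median centring moved the change of every feature by the same amount. The cause of the other shifts was not tested. Of the 2 other pathway genes, 1 was called with dim features left out, a step that removed AT3G53580, and 1 with the 12 samples fitted with the technical pair as a random block, where AT3G53580 did not pass (adjusted p = 0.0572). Without 1 replicate 0 to 2 were called, in fits of fewer samples. The place correction rests on 10 to 15 other features for each of the 4 genes. It also called features that never rose above the floor, so passing the threshold with it carries less weight. Signal over background is unknown, since no background values were used here.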
